A study of Mus musculus with 2 samples.

Results

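White adipocyte marker genes were followed through single-nucleus RNA profiles of mouse brown fat. The 10 genes, out of 31053 genes in the deposited matrices, were Nnat, Slc7a10, Npr3, Lep, Cfd, Retn, Aldh1a1, Cyp2e1, Ccdc80 and Peg3. They were selected on their expression in these same libraries, with earlier results known, so their levels and differences are described here without a test. The 1cyc library came from C57BL/6 mice whose fat was collected 4 days after 1 transient acute exposure to cold, and the TN library from C57BL/6 mice kept at thermoneutrality. Each library pooled nuclei of 5 mice, sorted as DAPI-positive with no selection of a cell type, and the matrices do not say which mouse a nucleus came from. With 1 library per condition, every interval below is a 95% interval for counting error only, and a difference between libraries has no replicate check.

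White adipocytes store lipid in a single large droplet and secrete hormones. Brown adipocytes burn lipid to make heat through the mitochondrial uncoupling protein UCP1. Brown fat that is warm and unstimulated is known to take on larger droplets and some transcripts of white fat. Lep encodes leptin, the satiety hormone, Retn encodes resistin, and Cfd encodes adipsin, the complement factor D. Slc7a10 encodes the amino acid transporter ASC-1, a surface marker of white adipocytes, and Npr3 the clearance receptor that removes natriuretic peptides. Aldh1a1 oxidises retinaldehyde to retinoic acid, Cyp2e1 is a cytochrome P450 that oxidises small molecules such as ethanol, and Ccdc80 encodes a secreted matrix protein. Nnat (neuronatin, a small membrane protein) and Peg3 (a zinc finger protein) are imprinted and expressed from the paternal allele.

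Adipocyte nuclei were barcodes under 5% mitochondrially encoded UMIs with at least 4 UMIs summed over Pparg, Acsl1, Pde3b and Ppara, a UMI being the unique molecular identifier that stands for 1 captured transcript. This left 912 of 4321 barcodes in 1cyc, with 989852 UMIs, and 1081 of 2551 in TN, with 1193078 UMIs. Barcodes with exactly 4 such UMIs, just inside the limit, numbered 49 in 1cyc and 45 in TN, and those with 3, just outside it, 53 and 61. The libraries differed in more than housing. The 1cyc barcodes had a median of 378 UMIs and 22.1% mitochondrial UMIs, against 800 UMIs and 4.76% in TN, and 6 barcode sequences occurred in both libraries. Among adipocyte nuclei the median was 966.5 UMIs in 1cyc and 873 UMIs in TN. Defining adipocyte markers were present in both, at 20091 CPM (UMIs of a gene per 1000000 UMIs) in 1cyc and 16924 CPM in TN over 12 genes. The 12 include the 4 gate genes, so part of this sum was set by the gate. The 11 fibroblast or progenitor markers, with 0 of them undetected, summed to 250 CPM in 1cyc and 533 CPM in TN, and erythroid markers to 2734 CPM and 36591 CPM. Macrophage or monocyte markers summed to 16.2 CPM in 1cyc and 222 CPM in TN, and skeletal muscle markers to 413 CPM and 107 CPM. Of the macrophage or monocyte sum, Lyz2 alone made 163 CPM in TN and 0 CPM in 1cyc. In a clustering made without the 10 genes, 32 of the 912 1cyc nuclei and 80 of the 1081 TN nuclei lay in clusters of other cell classes.

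All 10 are protein-coding genes (GRCm38, GENCODE annotation). The imprinted genes are Nnat at chr2:157560078-157562522 on the plus strand and Peg3 at chr7:6703892-6730431 on the minus strand. The secreted products are Lep at chr6:29060220-29073877 on the plus strand, Retn at chr8:3655770-3660110 on the plus strand, Cfd at chr10:79890853-79892655 on the plus strand and Ccdc80 at chr16:45093402-45128077 on the plus strand. The transporter and receptor are Slc7a10 at chr7:35186385-35201114 on the plus strand and Npr3 at chr15:11839896-11907287 on the minus strand, and the enzymes Aldh1a1 at chr19:20492715-20643465 on the plus strand and Cyp2e1 at chr7:140763739-140774987 on the plus strand.

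RefSeq promoter entries on build GRCm38.p6 were found for 9 of the 10 genes, with a pair of start sites for Aldh1a1. The 250 bases upstream of the start are printed for Nnat and Slc7a10, which were detected together in most Slc7a10-positive nuclei, for Lep, which holds a rare motif, and for Cyp2e1, which holds a TATA sequence. Capitals mark GGGCGG (the GC box letters, CCGCCC on the other strand), TTGCGCAA (a palindrome of the kind that C/EBP factors bind) and TATAAA.
Nnat (chr2:157559828-157560077, plus strand): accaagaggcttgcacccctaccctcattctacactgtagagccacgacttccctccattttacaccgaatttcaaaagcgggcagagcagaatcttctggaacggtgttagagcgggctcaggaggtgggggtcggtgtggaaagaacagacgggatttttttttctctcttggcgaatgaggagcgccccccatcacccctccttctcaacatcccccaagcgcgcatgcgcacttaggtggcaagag
Slc7a10 (chr7:35186135-35186384, plus strand): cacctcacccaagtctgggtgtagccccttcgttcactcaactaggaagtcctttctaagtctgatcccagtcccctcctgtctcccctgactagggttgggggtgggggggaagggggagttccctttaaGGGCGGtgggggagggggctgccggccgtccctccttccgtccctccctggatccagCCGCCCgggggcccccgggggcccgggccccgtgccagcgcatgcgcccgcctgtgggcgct
Lep (chr6:29059971-29060220, plus strand): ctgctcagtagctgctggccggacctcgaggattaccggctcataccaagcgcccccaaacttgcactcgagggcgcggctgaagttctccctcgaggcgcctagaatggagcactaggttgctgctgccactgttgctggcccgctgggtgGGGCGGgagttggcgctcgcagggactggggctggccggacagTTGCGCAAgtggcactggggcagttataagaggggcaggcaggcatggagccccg
Cyp2e1 (chr7:140763569-140763818, plus strand): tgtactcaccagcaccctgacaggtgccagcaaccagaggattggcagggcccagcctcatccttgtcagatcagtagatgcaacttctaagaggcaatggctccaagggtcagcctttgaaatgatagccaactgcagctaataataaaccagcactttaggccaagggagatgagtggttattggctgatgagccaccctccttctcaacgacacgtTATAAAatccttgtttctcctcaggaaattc
The windows searched also held 50 bases after the start, and both strands were read. The motifs were the palindrome TTGCGCAA, the wider form TTGCNNAA that includes it, the TATA letters TATAAA, the GC box GGGCGG, the E-box CACGTG and the direct repeat bound by PPAR-type receptors. The Lep palindrome starts at position -55 from the start site, and 0.183% of 32851 RefSeq promoters hold these letters. GGGCGG, present in Lep and at 2 places in Slc7a10, is held by 35.7% of promoters, and TATAAA, at position -31 in Cyp2e1, by 13.6%. The first of the Aldh1a1 promoters matched TTGCNNAA at position -13, and Lep through its palindrome, as did 10.8% of promoters. CACGTG is held by 7.15% of promoters and the direct repeat by 0.0396%, and neither was found for any of the 9 genes. None of the 6 motifs was found in the windows of Nnat, Npr3, Cfd, Retn and Peg3. CpG dinucleotides numbered 17 in the window of Nnat, 24 in Slc7a10, 19 in Lep and 13 in Peg3, but 2 in Cfd and 2 in Retn, against a median of 7 over all promoters.

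Nnat gave the most UMIs of the 10 genes in both libraries. All 10 had lower point values in 1cyc than in TN, and for Peg3 the values were closest. Nnat had 292 UMIs in the 1cyc nuclei, or 295 CPM (262 to 331), against 1053 UMIs and 883 CPM (830 to 938) in TN. The ratio of 1cyc to TN was 0.334 (0.293 to 0.381). Detection followed the level, with Nnat in 4.71% of 1cyc nuclei (3.43 to 6.30) and 13.5% of TN nuclei (11.5 to 15.7). Nuclei of the non-adipocyte clusters, with medians of 973 UMIs in 1cyc and 1229 UMIs in TN, detected it in 2.26% and 3.01%. Nnat overlaps Blcap, which is on the opposite strand and had 151 UMIs in 1cyc and 221 UMIs in TN. Whether counting used strand is not given in the sources used here.

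Slc7a10 was found in adipocyte nuclei and in no other clustered class. It had 31 UMIs in 15 of the 912 1cyc nuclei (31.3 CPM) and 129 UMIs in 56 of the 1081 TN nuclei (108 CPM), a ratio of 0.290 (0.189 to 0.431). No UMI of it was found in the 133 non-adipocyte nuclei of 1cyc, which allows a share of nuclei with a UMI of up to 2.26% by a floor of 3 nuclei (exact upper bound 2.74%), nor in the 266 of TN, which allows up to 1.13% (exact upper bound 1.38%). Retn, with 6 UMIs in 1cyc and 33 UMIs in TN, was likewise at 0 in those nuclei, and stayed under the minimum of 50 UMIs set for comparing libraries.

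Among the other secreted products, Lep had 29 UMIs in 1cyc and 68 UMIs in TN, which is 29.3 CPM (19.6 to 42.1) and 57.0 CPM (44.3 to 72.3). The ratio was 0.514 (0.321 to 0.805). Lep was found in 3.07% of 1cyc nuclei and 5.74% of TN nuclei, beside 1.5% and 1.88% of non-adipocyte nuclei. Cfd had 47 UMIs in 1cyc and 117 UMIs in TN, 47.5 CPM and 98.1 CPM, with a ratio of 0.484 (0.338 to 0.685). Both transcripts were thinly spread, since 96.4% of the Lep-positive 1cyc nuclei and 91.9% of those in TN held a single Lep UMI. For Cfd these shares were 90.2% and 85.9%. Ccdc80 had 46 UMIs and 46.5 CPM in 1cyc, against 168 UMIs and 141 CPM in TN, a ratio of 0.330 (0.233 to 0.460).

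The enzymes Aldh1a1 and Cyp2e1 were lower in 1cyc. Aldh1a1 had 43 UMIs and 43.4 CPM in 1cyc, against 171 UMIs and 143 CPM in TN, a ratio of 0.303 (0.212 to 0.426). Cyp2e1 had 21 UMIs and 21.2 CPM in 1cyc, against 95 UMIs and 79.6 CPM in TN, a ratio of 0.266 (0.158 to 0.431). Aldh1a7, the near-identical neighbour of Aldh1a1 with which reads could be shared, had 7 UMIs in 1cyc and 6 UMIs in TN. The receptor gene Npr3 was widespread, with 231 UMIs in 161 nuclei of 1cyc and 440 UMIs in 266 nuclei of TN. Its level was 233 CPM in 1cyc and 369 CPM in TN, a ratio of 0.633 (0.537 to 0.744). Peg3 had 138 UMIs and 139 CPM in 1cyc, against 171 UMIs and 143 CPM in TN. Its ratio of 0.973 (0.772 to 1.22) spans 1, so no difference was detectable at this depth.

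In all, 6 of the 9 measured genes had a 1cyc level of at most 0.5 times that in TN and 0 a level of at least 2 times, with a median log2 ratio of -1.58. Of the 5649 genes measured in these nuclei, 3.86% met the first limit and 2.44% the second, and the median log2 ratio was 0.10. The lower levels moved together with a lower sum of fibroblast or progenitor markers, as given above, and of endothelial markers, at 227 CPM in 1cyc and 551 CPM in TN. Their part in the difference was not tested. Without nuclei that held a fibroblast marker UMI, the log2 ratio of Nnat was -1.35, and that of Peg3 turned to 0.03.

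**Figure D1:**
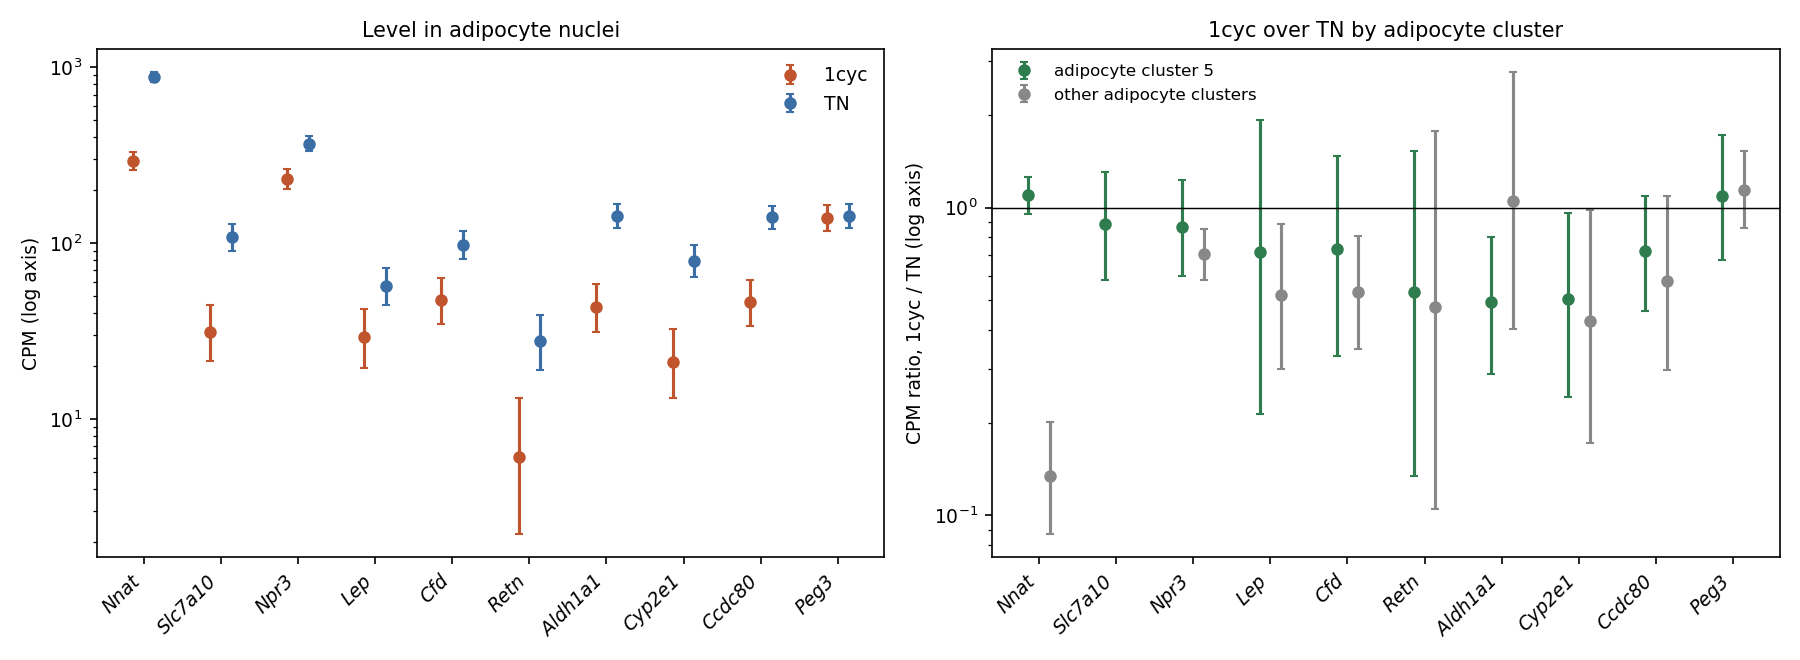
The left panel plots CPM (log axis) of the 10 genes in adipocyte nuclei of 1cyc and TN, and the right panel the CPM ratio of 1cyc to TN (log axis) in adipocyte cluster 5 and in the other adipocyte clusters. Bars are 95% counting intervals, and ratios from fewer than 50 UMIs over both libraries are drawn too. Nnat has a ratio of 1.10 in cluster 5 and 0.135 in the others, and the Slc7a10 ratio outside cluster 5 is not drawn because 1cyc had 0 UMIs there.

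Outside adipocytes the 10 genes split by cell class. Aldh1a1 was higher in fibroblast- or progenitor-like nuclei than in adipocyte nuclei, at 597 CPM in 75 nuclei of 1cyc and 595 CPM in 139 nuclei of TN. Skeletal muscle-like nuclei held 1592 CPM over 11 nuclei of 1cyc, where 4 nuclei had a UMI and 1 nucleus held 14 of the 24 UMIs, and 1162 CPM over 29 nuclei of TN. Such nuclei were also part of the adipocyte count, since 19 of the 81 Aldh1a1-positive TN nuclei and 4 of the 25 in 1cyc lay in clusters of another class. Peg3 stood at 465 CPM in the skeletal muscle-like nuclei of TN, from 16 UMIs, and at 199 CPM in those of 1cyc, from 3 UMIs.

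Ccdc80 stood at 87.1 CPM in the fibroblast- or progenitor-like nuclei of 1cyc and 109 CPM in those of TN. As a share of nuclei, Ccdc80 was detected in 3.18% of adipocyte nuclei of 1cyc and 8.23% of those of TN. In the non-adipocyte clusters it was detected in 5.26% and 7.89% of nuclei. Detection alone therefore does not set it apart as an adipocyte transcript. Npr3 stood at 144 CPM in the endothelial-like nuclei of TN, where 20.8% of 53 nuclei detected it at a median of 1521 UMIs, and the 24 endothelial-like nuclei of 1cyc held 2 UMIs. Nnat, Lep, Cfd and Cyp2e1 had at most 6 UMIs in any other class.

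**Figure D2:**
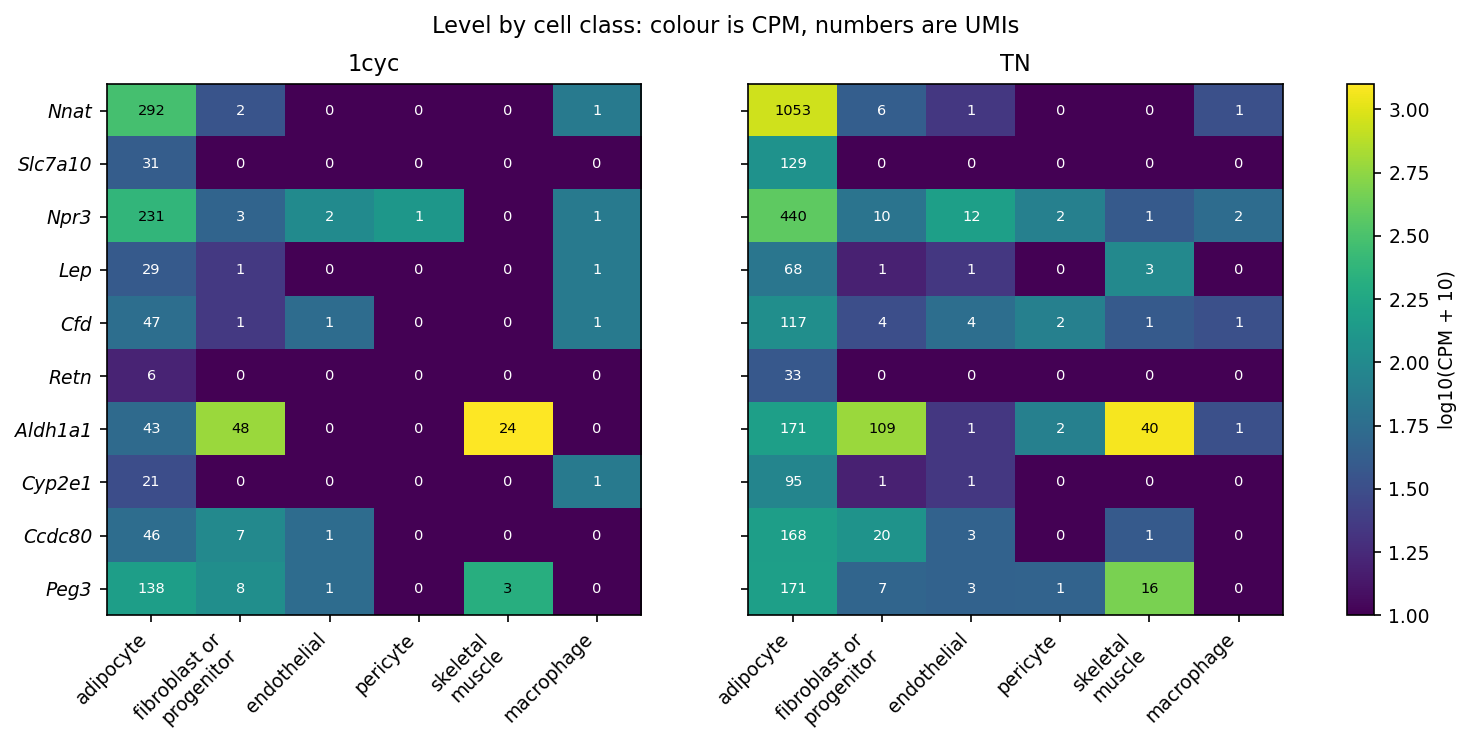
Each tile gives the CPM of a gene in a cell class, as log10(CPM + 10), with 1cyc on the left and TN on the right and the number of UMIs printed in the tile. Slc7a10 and Retn have 0 UMIs in the other classes drawn, and Aldh1a1 is brightest in skeletal muscle-like and fibroblast-like nuclei.

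Within adipocytes, most of the 10 transcripts gathered in a small group of nuclei. Adipocyte cluster 5, formed without any of the 10 genes, held 34 nuclei of 1cyc and 108 of TN, and 4.93% of all UMIs of the adipocyte clusters in 1cyc and 15.8% in TN. It held 100% of the Slc7a10 UMIs of the 1cyc adipocyte clusters and 97.0% of those in TN. For Nnat the shares were 90.8% in 1cyc and 81.3% in TN, for Aldh1a1 63.3% and 93.0%, and for Ccdc80 62.2% and 82.7%. Cyp2e1 followed with 55.0% in 1cyc and 78.9% in TN, and Retn with 50% and 76.5%. The shares of Peg3 (19.4% and 47.7%), Cfd (21.3% and 41.6%), Lep (17.9% and 36.4%) and Npr3 (17.6% and 38.6%) were lower, so that most UMIs of these genes came from the other adipocyte clusters in both libraries.

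Inside cluster 5 the level of Nnat did not differ between libraries beyond counting error, while outside it was lower in 1cyc. Inside, Nnat stood at 5850 CPM in 1cyc and 5324 CPM in TN, a ratio of 1.10 (0.956 to 1.26), and 76.5% of the 1cyc nuclei and 71.3% of the TN nuclei there detected it. In the other adipocyte clusters it was 30.9 CPM in 1cyc and 229 CPM in TN, a ratio of 0.135 (0.0872 to 0.2). Slc7a10 in cluster 5 was 702 CPM in 1cyc and 796 CPM in TN, a ratio of 0.882 (0.583 to 1.30). Npr3, Lep, Cfd, Retn, Ccdc80 and Peg3 also had intervals that included 1 inside cluster 5. Aldh1a1 did not, at 404 CPM in 1cyc and 821 CPM in TN (0.493, 0.287 to 0.8), nor did Cyp2e1, at 234 CPM and 463 CPM (0.506, 0.242 to 0.957). How many nuclei entered the cluster is not compared between libraries. Among other genes high in it, Chst1, Prr16 and Tshr had ratios of 0.490, 0.422 and 0.365 over all adipocyte nuclei. Adrb3 (0.956, 0.714 to 1.28) and Mageb18 (0.830, 0.573 to 1.19) had intervals that included 1. Whether the lower values follow from the number of nuclei in the cluster was not tested.

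A few nuclei carried most Nnat transcripts. In 1cyc 17 nuclei with 5 or more Nnat UMIs held 87.7% of them, and in TN 59 nuclei held 86.4%, with at most 39 UMIs in a 1cyc nucleus and 70 UMIs in a TN nucleus. Npr3 nuclei with 5 or more UMIs held only 11.7% of its UMIs in 1cyc and 20.2% in TN.

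Co-detection asked which genes marked the same nuclei. For each pair, the nuclei with UMIs of both genes were set against the number expected if the genes were detected independently, and a pair was called when both libraries had at least 5 such nuclei and at least 2 times the expected number. Of the 45 pairs, 21 could be judged, between the 7 genes detected in at least 20 nuclei of each library. Of these, 9 pairs (42.9%) were called, against 0.468% of all 15582153 gene pairs that met the same detection minimum. With the expected number summed over 10 bins of nuclear depth, 5 of the 21 pairs were called, against 0.0600% of all pairs. The 5 were Nnat with Lep, Cfd, Aldh1a1 and Ccdc80, and Aldh1a1 with Ccdc80.

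Nnat was called with 5 of its 6 judged partners. It shared 9 nuclei with Ccdc80 in 1cyc, where 1.37 were expected, and 51 nuclei in TN, where 12 were expected, which within depth bins were 4.91 and 2.75 times the expected number. With Aldh1a1 it shared 10 nuclei in 1cyc (8.48 times the expected number) and 41 in TN (3.75 times). Aldh1a1 and Ccdc80 met in 9 nuclei of 1cyc (11.3 times) and 38 nuclei of TN (5.70 times), which within depth bins were 6.07 and 2.69 times. Lep and Cfd met Nnat more weakly, the first in 6 nuclei of 1cyc and 23 of TN (4.54 and 2.75 times). Cfd met it in 9 and 36 nuclei (4.66 and 2.69 times). Within depth bins these were 3.67 and 2.02 times for Lep and 3.94 and 2.06 times for Cfd. Both TN values are just over the limit of 2.

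The least abundant genes could not be judged by the same rule but showed the highest values. Observed over expected cannot exceed all nuclei divided by the nuclei with the commoner gene. The ceiling is therefore lower for widely detected genes such as Npr3, and for Nnat with Slc7a10 it is lower in TN than in 1cyc. How much of the ranking comes from detection was not tested. Slc7a10 shared 13 of its 15 nuclei in 1cyc with Nnat (18.4 times the expected number) and 41 of its 56 nuclei in TN (5.42 times). Within depth bins these were 12 and 3.47 times. Slc7a10 shared 9 nuclei with Aldh1a1 in 1cyc and 28 in TN, 21.9 and 6.67 times the expected number, or 12.4 and 3.15 times within depth bins. Cyp2e1 and Ccdc80 met in 30 nuclei of TN (5.78 times) and in 1 of 1cyc, where 0.509 were expected. Retn met Slc7a10 in 1 nucleus of 1cyc and 14 of TN, where 1.35 were expected.

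Npr3 had 0 of its 6 judged pairs called, with values between 1.19 and 2.24 times the expected number across both libraries. Of all gene pairs that met the detection minimum 0.468% were called, so a count of 0 of 6 is near that background. With Nnat the values were 2.24 times in 1cyc and 1.92 times in TN, just under the limit of 2 in TN. Npr3 gained a call with Nnat at a gate of 2 UMIs, with Aldh1a1 without nuclei in clusters of another class, and with Slc7a10 and Aldh1a1 with no mitochondrial limit. Its nuclei overlapped Peg3 in 24 nuclei of 1cyc, where 20.1 were expected, and in 41 of TN, where 28.8 were expected. Lep and Cfd, both secreted by fat cells, were not found together in any 1cyc nucleus, where 1.26 were expected, and shared 14 nuclei in TN (2.47 times).

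**Figure D3:**
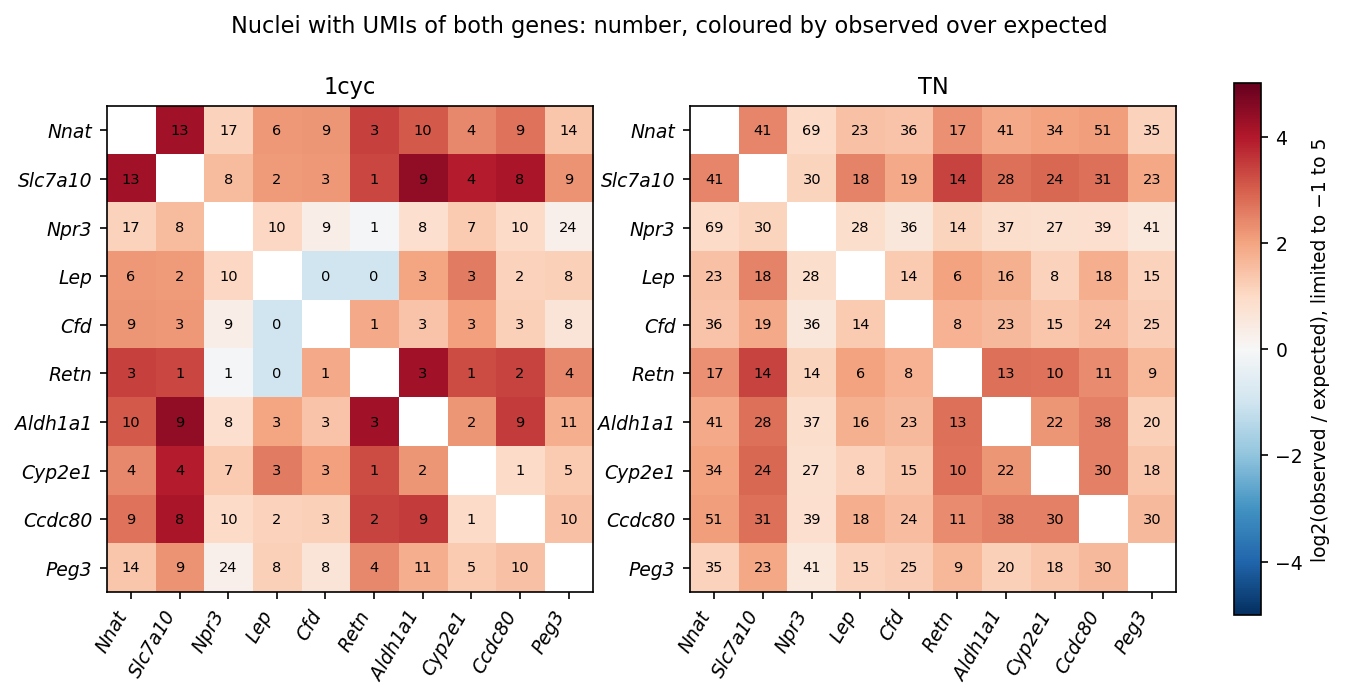
Numbers are adipocyte nuclei with UMIs of both genes, for 1cyc on the left and TN on the right. Colour is log2 of observed over expected, with pairs of 0 nuclei drawn at the lower limit. The Npr3 row is pale in both panels, and the Slc7a10 row is dark, at 18.4 times with Nnat in 1cyc and 5.42 times in TN.

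The 10 genes were also counted per nucleus. Nuclei with at least 2 of them numbered 88 of 912 in 1cyc, or 9.65% (7.81 to 11.8), and 201 of 1081 in TN, or 18.6% (16.3 to 21.0). After thinning each nucleus to 500 UMIs, which left out 125 shallower nuclei of 1cyc and 0 of TN, the shares were 4.57% and 9.34%. At most 7 of the genes occurred in a nucleus of 1cyc and 9 in a nucleus of TN. Detection grew with depth, the median being 1489 UMIs in 1cyc and 1237 UMIs in TN for nuclei with at least 2 of the genes, against 856 UMIs and 795 UMIs for those with none. All 16 1cyc nuclei with 4 or more of the genes lay in cluster 5, and so did 55 of the 59 TN nuclei. Of the nuclei with exactly 2 of the genes, only 2 of 55 in 1cyc and 18 of 109 in TN lay there. With 3 of the genes it was 7 of 17 in 1cyc and 17 of 33 in TN. Of the nuclei with none, 2 of 588 in 1cyc and 1 of 544 in TN lay there.

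Each gene was also compared between nuclei with at least 2 of the other 9 genes and nuclei with none. Nnat was 1962 CPM with the others and 42.4 CPM without them in 1cyc, and 3328 CPM and 103 CPM in TN, which is 46.2-fold (30.6 to 72.8) and 32.3-fold (24.7 to 43.0). Slc7a10 had 31 UMIs in the 88 1cyc nuclei with the others and 0 UMIs in the 588 without, at least 43.1-fold higher against a floor of 3 UMIs over the group, with 33.0 as the lower end of the exact interval. In TN it had 117 UMIs in 194 nuclei with the others and 1 UMI in 545 without, a ratio of 208 (36.5 to 8266). Ccdc80 was 12.8-fold higher in 1cyc and 17.5-fold in TN, and Cyp2e1 20.1-fold (5.60 to 109) and 12.8-fold (6.55 to 27.8). Npr3 differed less, at 2.63-fold (1.85 to 3.68) in 1cyc and 2.77-fold (2.24 to 3.41) in TN, as did Cfd, at 105.5 CPM with the others and 35.2 CPM without them in 1cyc and 2.74-fold (1.78 to 4.27) in TN. Depth differed between these nuclei, and its part in the ratios was not tested.

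Nuclei rich in these genes had a lower sum of brown fat transcripts. The list of 20 thermogenic genes, which the marker list did not use, stood at 3749 CPM (3098 to 4496) in the 16 1cyc nuclei with 4 or more of the 10 genes, against 12976 CPM in the 588 with none. In TN it stood at 2180 CPM (1919 to 2467) in 59 nuclei, against 10433 CPM in 544. Nuclei of non-adipocyte clusters had 3530 CPM in 1cyc and 3020 CPM in TN. Levels in the nuclei richest in the 10 genes were thus close to, or under, those in other cell classes. The thermogenic sum rests largely on a few genes. In the 1cyc nuclei with none, Esrrg gave 1842, Pank1 1524, Ppargc1b 1421 and Ebf2 775 of its 7467 UMIs, and Ucp1 148. In TN these were 1621, 1079, 952, 630 and 72 of 5442 UMIs. Adipocyte markers were 17806 CPM with 4 or more of the genes and 20412 CPM with none in 1cyc, and 17189 CPM and 17487 CPM in TN. They include the 4 genes of the adipocyte gate, so every nucleus compared was selected for part of this sum.

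The thermogenic sum was lower with each further gene from 1 gene on. In 1cyc the thermogenic sum was 12976 CPM, 12260 CPM, 11549 CPM, 8536 CPM and 3749 CPM in nuclei with 0, 1, 2, 3 and 4 or more of the genes. In TN it was 10433 CPM, 10501 CPM, 8721 CPM, 6924 CPM and 2180 CPM. Fibroblast or progenitor markers had no such order in TN, at 268 CPM, 590 CPM, 1492 CPM, 243 CPM and 443 CPM, and were highest in nuclei with 2 of the genes. Endothelial markers did have the order in TN, at 690 CPM, 587 CPM, 426 CPM, 146 CPM and 104 CPM, but not in 1cyc, at 219 CPM, 217 CPM, 374 CPM, 135 CPM and 194 CPM. In nuclei with at least 2 of the genes, erythroid markers summed to 210 CPM in 1cyc and 9347 CPM in TN, against 4530 CPM and 43207 CPM with none. Macrophage or monocyte markers summed to 7.25 CPM in 1cyc and 752 CPM in TN, against 19.1 CPM and 61.3 CPM with none. Lyz2 alone gave 193 of the 227 UMIs behind the TN value of 752 CPM. Other markers of that list were mixed in TN, F13a1 having 24 UMIs against 13 with none, and Mrc1 0 UMIs against 8. The part of these other cell types in the thermogenic values was not tested. Without nuclei in clusters of another class, the thermogenic sum with 4 or more genes was 3749 CPM in 1cyc and 2201 CPM in TN, against 13290 CPM and 11682 CPM with none.

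Among single brown fat genes, Ucp1 had 0 UMIs in the 16 1cyc nuclei with 4 or more of the genes, against 148 UMIs in the 588 with none, at least 2.65-fold lower against a floor of 3 UMIs over the group, with a ratio of 0.469 as the upper end of the exact interval. In TN it had 2 UMIs in 59 nuclei, against 72 UMIs in 544, a ratio of 0.126 (0.0150 to 0.471). Ucp1 did not fall step by step in 1cyc, where nuclei with 0, 1, 2 and 3 genes had 257 CPM, 289 CPM, 439 CPM and 169 CPM. For nuclei with at least 2 genes over those with none, its ratio was 1.10 (0.752 to 1.57) in 1cyc and 0.624 (0.383 to 0.990) in TN. Esrrg, a nuclear receptor that drives oxidative genes, had a ratio of 0.0707 (0.0284 to 0.146) in 1cyc and 0.0671 (0.0429 to 0.100) in TN. Cidea, a lipid droplet protein of brown fat, had 0.0707 (0.00854 to 0.257) in 1cyc and 0.0397 (0.00816 to 0.117) in TN.

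Adrb3 went the other way, although it belongs to the thermogenic list as the receptor through which noradrenaline drives adipocytes. It stood at 1357 CPM (978 to 1835) in the 1cyc nuclei with 4 or more of the genes, against 38.2 CPM with none, a ratio of 35.5 (20.7 to 62.4). In TN it stood at 669 CPM (528 to 836), against 17.3 CPM, a ratio of 38.8 (19.4 to 88.0). Over all adipocyte nuclei Adrb3 did not differ detectably, at 88.9 CPM in 1cyc and 93.0 CPM in TN (0.956, 0.714 to 1.28). In the non-adipocyte clusters it had 0 CPM in 1cyc and 2.63 CPM in TN.

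**Figure D4:**
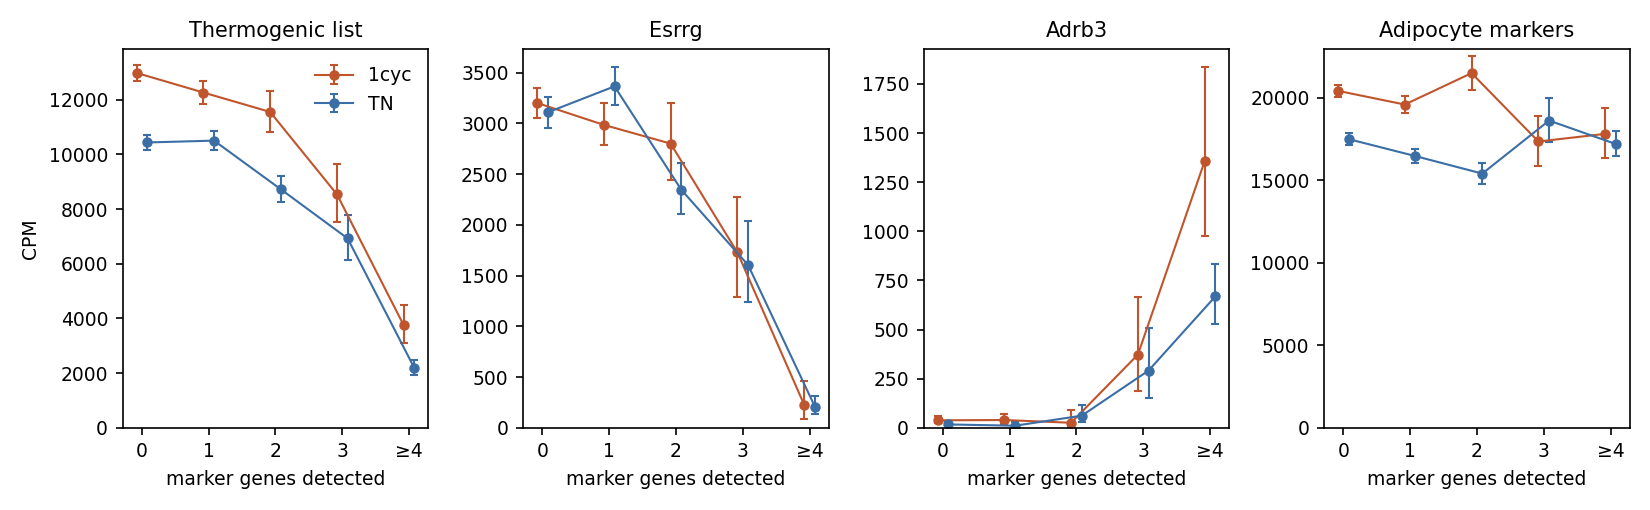
CPM of the thermogenic list, Esrrg, Adrb3 and the adipocyte markers is plotted against the number of the 10 genes detected in a nucleus, for 1cyc and TN, with 95% counting intervals. Adrb3 reaches 1357 CPM in 1cyc and 669 CPM in TN at 4 or more genes, where Esrrg is lowest, and the adipocyte markers stand at 17806 CPM and 17189 CPM.

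Across the whole transcriptome, nuclei with at least 2 of the 10 genes were compared with nuclei with none. Of 5726 other genes, 2.41% had at least 2 times the level and 1.38% at most 0.5 times, each in both libraries. The genes most like the markers, ranked by the lower bound of this ratio in the weaker library, were Chst1, Mageb18, Dock11, Prr16, Slit3, Adrb3, Trhde, Cachd1, Igf1, Auts2, St6galnac5 and Bcar3. Chst1, a sulfotransferase of glycans, had 159 CPM in the marked 1cyc nuclei and 1.74 CPM in those with none (91.8-fold, 14.8 to 3787). In TN it had 189 CPM and 3.83 CPM (49.3-fold, 13 to 417). In the 1cyc nuclei with none, Chst1 had 1 UMI, Dock11 2 UMIs, and Mageb18, Trhde and Igf1 4 UMIs each, so these genes met the minimum of 20 UMIs mainly through the marked nuclei. Mageb18, of the MAGE family, was 48.0-fold higher in 1cyc (17.5 to 183) and 24.2-fold in TN (9.89 to 76.9).

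Trhde, an enzyme that degrades thyrotropin-releasing hormone, was 18.8-fold higher in 1cyc (6.18 to 76.2) and 24.6-fold in TN (9.11 to 93.5). Igf1, the growth factor, was 17.7-fold higher in 1cyc (5.78 to 72.4) and 16.4-fold in TN (7.93 to 39.4). Some of these genes were also high in other cell classes. Slit3, a secreted guidance protein, stood at 1653 CPM in the non-adipocyte clusters of 1cyc and 1564 CPM in those of TN, and Dock11, an activator of small GTPases, at 160 CPM and 190 CPM. Dock11 was 39.6-fold higher in 1cyc (9.56 to 350.8) and 23.7-fold in TN (11.1 to 60.6), and Slit3 8.69-fold (6.51 to 11.7) and 9.93-fold (8.04 to 12.4). Without nuclei of other-class clusters, Dock11 was 65.3-fold higher in 1cyc and 149-fold in TN, and Slit3 13.4-fold and 17.6-fold. These last values have no interval. Those of Dock11 rest on very few UMIs, since nuclei with none held 2 UMIs in 1cyc and 7 UMIs in TN even before that cut. Between libraries, Dock11 had a ratio of 1cyc to TN of 0.265 (0.163 to 0.416) and Igf1 0.285 (0.171 to 0.458), while Mageb18 had 0.830 (0.573 to 1.19).

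At the opposite end stood Pank1, Gnas, Esrrg, Ntrk3 and Nav2. Pank1, a kinase of coenzyme A synthesis, had 1457 CPM in the marked 1cyc nuclei and 2648 CPM in those with none (0.550, 0.472 to 0.638), and 1057 CPM and 2069 CPM in TN (0.511, 0.450 to 0.580). Gnas encodes the stimulatory G protein that couples Adrb3 to cyclic AMP. It had 1442 CPM and 2495 CPM in 1cyc (0.578, 0.496 to 0.671), and 822 CPM and 1509 CPM in TN (0.545, 0.470 to 0.629). Ntrk3, the neurotrophin-3 receptor, had ratios of 0.624 in 1cyc and 0.496 in TN.

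**Figure D5:**
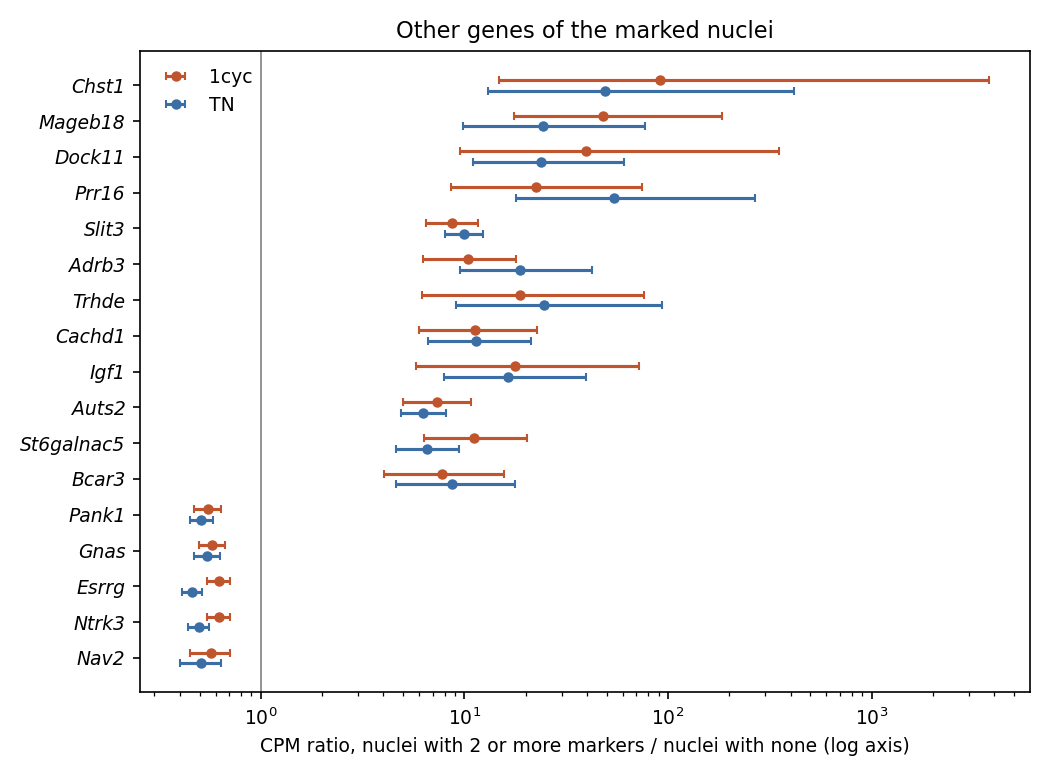
The CPM ratio of nuclei with at least 2 of the 10 genes to nuclei with none (log axis) is plotted for the 12 most like and 5 of the least like genes, for 1cyc above TN, with 95% counting intervals. All 12 intervals of the most like genes lie right of 1 and all 5 of the least like genes drawn left of 1 in both libraries, as the rule that chose them requires.

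Gene groups related to the markers were described by count. Of the 20 thermogenic genes 13 were measured, and in nuclei with at least 2 markers 1 (Adrb3) reached 2 times the level in both libraries and 0 stood at or under 0.5 times, against 2.41% and 1.38% of all genes tested. Their median ratio was 0.781 in 1cyc and 0.532 in TN, against 0.981 and 0.995 over all genes. Among them Ppargc1b had 0.693 in 1cyc and 0.532 in TN, and Prdm16, a regulator of brown fat identity, 0.787 and 0.493. Between libraries 1 of the 13 (Ucp1, ratio 2.15, 1.75 to 2.64) reached 2 times the TN level in 1cyc and 0 stood at or under 0.5 times, against 2.44% and 3.86% of all measured genes, with a median log2 ratio of 0.54.

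Imprinted genes beyond Nnat and Peg3 shared the pattern only in part. Of 7 measured, Grb10 and Sgce were at least 2-fold higher in marked nuclei of both libraries, against 2.41% of all genes tested. Grb10, an adaptor that dampens insulin signalling, was 8.34-fold higher in 1cyc (2.90 to 27.1) and 4.90-fold in TN (2.81 to 8.91), and Sgce, a sarcoglycan, 4.17-fold (1.71 to 10.2) and 2.84-fold (1.79 to 4.6). They were also the 2 of 7 that were at least 2-fold lower in 1cyc than in TN, against 3.86% of all measured genes, with ratios of 0.378 (0.236 to 0.589) and 0.405 (0.274 to 0.587). Of the other 5, Meg3, a noncoding RNA, had 0.658 (0.479 to 0.898), and Igf2r, the receptor that clears IGF2, 1.38 (1.03 to 1.85). Zim1, a neighbour of Peg3, had 0.871 (0.505 to 1.48), Kcnq1ot1 1.09 (0.95 to 1.25) and Impact 0.989 (0.600 to 1.62). The list summed to 848 CPM in marked nuclei of 1cyc and 667 CPM in those with none, beside 2832 CPM in non-adipocyte clusters.

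Of 13 other genes known from white fat, 5 were measured and 3 were at least 2-fold lower in 1cyc, against 3.86% of all measured genes. These were Igf1, as above, Tshr, the thyrotropin receptor (0.365, 0.275 to 0.479), and Apoe (0.432, 0.242 to 0.742). Tshr was 4.65-fold higher in marked nuclei in 1cyc (2.64 to 8.22) and 14.1-fold in TN (9.09 to 22.7), whereas Apoe had ratios of 1.04 in 1cyc and 0.899 in TN. Adiponectin, from Adipoq, had 139 CPM in 1cyc and 95.6 CPM in TN (1.46, 1.13 to 1.89), the opposite direction to Lep and Cfd. Adipor2, the remaining measured gene, had a ratio of 1.08 (1.01 to 1.16), and in marked nuclei 0.827 in 1cyc and 1.14 in TN. Hoxc8, Hoxc9, Hoxc10, Tcf21 and Agt had 0 UMIs in adipocyte nuclei of both libraries. Sfrp5 had 0 UMIs in 1cyc and 1 UMI in TN.

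Few partners of the markers could be measured. Of 15 retinoid genes beside Aldh1a1, 3 were measured and 0 were 2-fold apart in either direction, where 3.86% of all measured genes were lower and 2.44% higher, Dhrs3 having a ratio of 1.15 and the retinoic acid receptor gene Rarb 1.07. Of the 16 partner genes of leptin, natriuretic peptides, resistin and amino acid transport, 3 were measured and 0 were 2-fold apart, and a count of 0 of 6 is near that background. Npr1, the signalling receptor for natriuretic peptides that competes with Npr3, had 28 UMIs in 1cyc and 39 UMIs in TN (0.865, 0.513 to 1.44). Cap1, a resistin receptor in human cells, had 0.869 (0.529 to 1.41), and Slc7a11, the cystine transporter, 0.826 (0.470 to 1.43). Among the adipocyte markers, Cidec, which enlarges lipid droplets, was 2.15-fold higher in marked nuclei of 1cyc (1.76 to 2.60) and 3.06-fold in TN (2.58 to 3.64). Plin4, a lipid droplet coat protein, was 1.80-fold higher in 1cyc (1.11 to 2.84) and 5.45-fold in TN (3.65 to 8.32). Ppara, a gate gene, went the other way, with ratios of 0.694 (0.637 to 0.755) in 1cyc and 0.495 (0.457 to 0.536) in TN.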

How the data were processed

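Nuclei of pooled brown fat were sorted on DAPI and profiled on the 10x Genomics platform, per the labels. The deposited matrices hold raw UMI counts per gene and barcode, unnormalised, made by the authors with Cell Ranger (version 3.1.0 per the file headers) on mm10, per the submitters' processing notes. Whether intronic reads and strand were used is not given in the sources used here. Nuclei were classed by clustering without the 10 genes (scanpy 1.11.5, resolution 1, 2000 variable genes, at least 200 genes per nucleus), and clusters were named only from marker lists. CPM is UMIs summed over nuclei per 1000000 UMIs. CPM intervals are exact Poisson, shares exact Clopper-Pearson, and ratios exact conditional binomial, at 95%. No test between conditions is possible with 1 library each. Comparisons between libraries needed 50 UMIs over both sums. Named genes were the 10 genes, the 12 most and 6 least like them, of which 1 of the least like is not reported here, and list members. Scrublet called 9 of 1065 nuclei in 1cyc and 10 of 1303 in TN as doublets. These were kept among the adipocyte nuclei but left out of the clustering, and so of every value given for a cluster or another cell class. Values for the non-adipocyte clusters together leave out the 8 erythroid barcodes of TN. The calculations were tested on simulated data. The 10 genes and the lists were chosen with earlier results of these data known. Gene positions came from GENCODE and promoters from RefSeq.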

Additional observations from a re-analysis of the deposited data

How the results depend on the processing

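No paired analysis was possible because each condition is 1 library. Of the values recomputed under other settings, 182 kept their direction and stayed near the main value, 35 moved further and 2 changed sign. Staying near allowed shifts such as that of Nnat with Slc7a10 in 1cyc, from 18.4 to 12 times within depth bins. Keeping only nuclei with at least 500 UMIs left all 1081 TN nuclei in place, so TN values could not change there. The cause of each shift was not tested.

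Peg3 changed sign, with log2 ratios of 1cyc to TN of 0.0883 at a gate of 2 UMIs and 0.0285 without nuclei holding a fibroblast marker UMI, an alternative chosen after seeing the data. It was -0.77 at a mitochondrial limit of 2% and -0.39 with no limit. At 2% the log2 ratios were -2.15 for Ccdc80, -2.42 for Cfd, -1.66 for Lep and -2.17 for Nnat, with a median of -2.15 over the measured genes. With no limit Cfd was -0.52. At a gate of 8 UMIs Aldh1a1 was -2.80, Nnat -1.90 and the median -1.85. Nnat was -1.37 at a gate of 2 UMIs and -1.35 without nuclei holding a fibroblast marker UMI. The number of measured genes at least 2-fold lower in 1cyc stayed between 5 and 7, edgeR 4.0.16 TMM scaling and median-of-ratios size factors included.

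Co-detection changed with several settings. Called pairs, 9 in the report, numbered 1 at 2% mitochondrial UMIs (3 pairs judged), 17 with no limit (36 judged), 5 at a gate of 8 UMIs (15 judged), 4 without nuclei holding a fibroblast marker UMI (15 judged), 1 after thinning to 500 UMIs (3 judged) and 5 within depth bins. Nnat with Slc7a10 stood at 8.40 times the expected number in 1cyc with no mitochondrial limit, and in TN at 7.17 times after thinning and 3.47 times within depth bins. The share of nuclei with at least 2 of the genes was 5.41% in 1cyc with no limit and 4.57% after thinning. In TN it was 28.1% at 2%, 15.3% with no limit, 16.2% without nuclei holding a fibroblast marker UMI and 9.34% after thinning.

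The thermogenic ratio of nuclei with at least 2 of the genes to those with none, 0.706 in 1cyc and 0.573 in TN, was 0.856 and 0.614 with no mitochondrial limit. With nuclei classed without Ccdc80, Peg3 and Aldh1a1 it was 0.556 in 1cyc and 0.473 in TN. In TN it was also 0.504 at 2%, 0.646 at a gate of 2 UMIs and 0.645 without nuclei holding a fibroblast marker UMI. In every setting run it stayed under 1. Depth limits Retn, Lep, Cyp2e1 and Slc7a10 most, with 6 to 31 UMIs in 1cyc adipocyte nuclei.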

Other observations

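Barcodes that met the adipocyte gate but had 5% or more mitochondrial UMIs numbered 1637 in 1cyc and 816 in TN, and entered only the recomputations with a wider or no mitochondrial limit. Among them Cfd had 86 UMIs in 1cyc, or 118 CPM, and 91 UMIs in TN, or 134 CPM. Nnat had 96 UMIs (132 CPM) in 1cyc and 202 UMIs (298 CPM) in TN, and Slc7a10 16 UMIs (22.0 CPM) and 30 UMIs (44.3 CPM). Peg3 had 45 UMIs (61.9 CPM) in 1cyc and 90 UMIs (133 CPM) in TN. The median depth of these barcodes was 379 UMIs in 1cyc and 698 UMIs in TN.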
